A study of Sus scrofa with 18 samples.

Results

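The liver transcriptome of pigs fed a diet in which insect meal replaced 50% of the soybean extraction meal (group IM5) was compared with that of pigs whose protein came mainly from soybean extraction meal (group CON). All arrays carrying these 2 labels were taken, 6 from IM5 and 6 from CON, which is 12 of the 18 arrays of the series; the other 6 come from pigs with complete replacement (group IM10). The pigs were male crossbreeds, Piétrain x (German Landrace x German Edelschwein), were 5 weeks old at the start and received the diets for 4 weeks before they were killed on day 29. Feed was offered ad libitum and the pigs were killed in the fed state. The time since the last meal of each pig is not given in the sources used here. CON received 0% and IM5 received 5% insect meal, made from the yellow mealworm Tenebrio molitor, and each array holds liver RNA of 1 pig out of the 10 in its group. The diets were balanced for protein and energy with cellulose, free amino acids and plant oils in different amounts, so a difference belongs to the whole diet, and insect meal cannot be told apart from the other changes of the recipe. Pigs of a group shared 3 pens, the pen of each pig is not given in the sources used here, and every pen held pigs of 1 diet, so the tests treat pigs as independent and pen and diet cannot be told apart.

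The liver receives dietary amino acids first and adjusts their use for protein secretion, urea and glucose production under the control of insulin, glucagon, glucocorticoids and growth hormone. Growth hormone acts in hepatocytes through the kinase JAK2 and the transcription factor STAT5, which drives both insulin-like growth factor 1 and a set of feedback inhibitors. Hepatocytes also secrete most plasma proteins, and the chaperones and transport proteins of the endoplasmic reticulum follow that secretory load. Bulk liver RNA also holds transcripts of resident and passing immune cells, vessels and bile ducts, and in such RNA fewer cells of a type and less RNA per cell cannot be told apart.

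Values are log2 signals after robust multi-array averaging (RMA), a procedure that corrects background, normalises arrays and condenses the probes of a probe set into 1 value. A difference of 1 on this scale is a doubling of signal. Of the 25388 probe sets, 13257 carried exactly 1 gene symbol, and these covered 12307 different genes. Array medians ranged from 5.05 to 5.15, and arrays correlated with each other at 0.986 to 0.9924. IM5 replicate 4 and IM5 replicate 6 lay at opposite ends of the first principal component, which held 15.12% of the variance. Replicate 4 also had the highest median (5.15) and the narrowest interquartile range of signals (2.57) of the 12 arrays. Replicate 6 had the lowest median (5.05) and the widest interquartile range (2.76). For several lists counts are therefore also given without these 2 arrays. Counts of other lists changed too, and a count given once is not thereby stable. Of 24 lists with no member at the criteria below, 10 then had up to 2. Of the 18 listed hepatocyte markers 12 were measured, none met the criteria below, and their mean level was 11.54 to 11.57 in CON and 11.53 to 11.66 in IM5.

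Differences between IM5 and CON livers were mostly small. RMA brings the arrays to a common distribution, so the median difference over all probe sets (0.00333) and the share of named genes with the higher mean in IM5 (50.3%) serve only as a reference for the lists below. At a fold change over 1.2 and an unadjusted p under 0.05 by limma, the criteria used throughout, 488 probe sets (1.92%) were called, 284 higher in IM5 (1.12%) and 204 lower (0.804%). In the text "rose" and "fell" are used only for probe sets that met these criteria. An unadjusted p under 0.05 alone was reached by 1452 probe sets (5.72%). No probe set (0%) had a Benjamini-Hochberg adjusted p under 0.05 in limma (smallest 0.863), and the methods' t-test gave 1432 unadjusted and 0 adjusted calls. Each gene named below as having risen or fallen therefore had a limma adjusted p of 0.863, and the values describe these 12 pigs. Genes were named for these same values, most of them by rules on the size or the p of the difference. The exact permutation p-values printed with them are therefore no separate evidence. Counted with 1 probe set per named gene, 239 genes (1.94%) met the criteria, 144 higher (1.17%) and 95 lower (0.772%), and these shares are the background for the gene lists. The split between higher and lower calls depended on scaling: 58.2% of the calls were higher in IM5 as deposited, 53.5% after quantile normalisation and 49.1% after median centring.

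**Figure D1:**
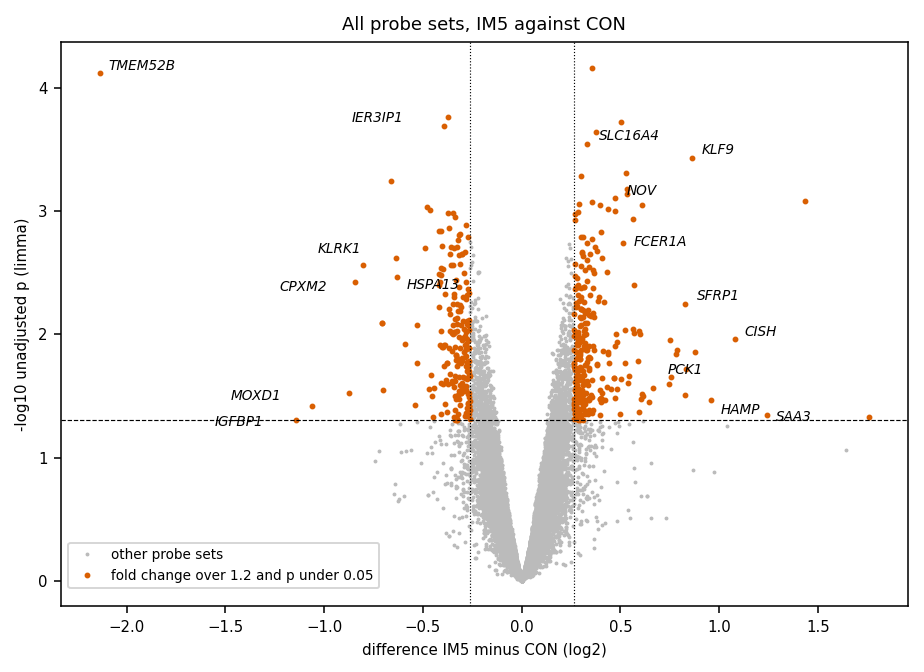
Each point is 1 of the 25388 probe sets, with the IM5 minus CON difference (log2) on the horizontal axis and minus log10 of the unadjusted limma p on the vertical axis, for 6 against 6 pigs. Orange points are the 488 that met the criteria (lines at a fold change of 1.2 and p of 0.05); TMEM52B is farthest left, at a difference of -2.14.

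Among hormone-responsive transcripts, 2 of 10 measured growth hormone and STAT5 targets rose and 1 fell, with a median difference of 0.118. Without IM5 replicates 4 and 6 together, a setting chosen after seeing the data, 3 rose and 1 fell. CISH, a STAT5-induced inhibitor of cytokine receptors, had its lowest, median and highest values at 5.06, 5.46 and 5.69 in CON and at 5.48, 6.16 and 8.60 in IM5. In IM5 5 pigs lay above every CON pig, and only IM5 replicate 6 fell inside the CON range. CISH rose 2.11-fold (1.08 ± 0.37 log2, SE, n = 6 per group, two-sided exact permutation p = 0.00866). The SE here and below is the moderated one of limma, which draws the variance of each probe set toward that of all probe sets. For genes that vary much between pigs it is smaller than their own spread would give. The SD of CISH was 0.27 in CON and 1.09 in IM5. Without IM5 replicate 4, whose value of 8.60 was far above the next one of 6.63, the difference was 0.66 and the criteria were still met.

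SOCS2, the feedback inhibitor that limits growth hormone receptor signalling, ranged over 4.67, 5.99 and 7.12 (lowest, median, highest) in CON and over 5.72, 6.79 and 7.47 in IM5. The groups overlapped widely, with 1 IM5 pig above all CON pigs, and the difference of 0.83 ± 0.35 (exact p = 0.0823) met the criteria in 7 of the 12 fits that left out 1 array, failing without CON replicate 4 or 6 or IM5 replicate 1, 2 or 5. PIM1, a STAT5-induced kinase outside the list that was picked after its values were seen, rose from a CON median of 6.39 to 6.56 (difference 0.40 ± 0.17, exact p = 0.0931) and lost the criteria without CON replicate 1 or 4 or IM5 replicate 3 or 4. BCL6, a transcriptional repressor that growth hormone lowers in mouse liver, moved the other way. Its values were 6.95, 7.25 and 7.55 in CON and 6.83, 6.95 and 7.14 in IM5, 3 IM5 pigs lay below all CON pigs, and it fell by 0.32 ± 0.09 (exact p = 0.0108; not at the criteria without CON replicate 2). The growth factor end of the pathway did not pass. IGF1 differed by 0.33 ± 0.32 (exact p = 0.435) and IGFALS, a part of the plasma complex that carries IGF1, by 0.21 ± 0.12 (exact p = 0.132). The receptor GHR differed by 0.10 and JAK2 by -0.10.

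Gluconeogenesis and amino acid carbon use showed the next group. Of 13 measured members of the gluconeogenesis list 11 had the higher mean in IM5 and 2 rose, with a median difference of 0.083 (0.132 and again 2 rises without IM5 replicates 4 and 6). PCK1, the rate-controlling phosphoenolpyruvate carboxykinase, had values of 7.39, 8.50 and 9.02 in CON and 8.24, 9.0 and 9.90 in IM5. Of the IM5 pigs 3 exceeded all CON pigs, and the rise was 1.73-fold (0.79 ± 0.28, exact p = 0.0455). A second PCK1 probe set differed by 0.60. GPT2, the mitochondrial alanine aminotransferase that feeds alanine carbon into glucose, had values of 6.05, 6.42 and 6.65 in CON and 6.41, 6.94 and 8.47 in IM5. For GPT2 4 IM5 pigs lay above the CON range, and it rose 1.68-fold (0.75 ± 0.26, exact p = 0.0173), or by 0.48 without IM5 replicate 5, at which the criteria were still met. The cytosolic GPT differed by 0.02, pyruvate carboxylase PC by 0.00, GOT1 by 0.18 and the glucose 6-phosphate transporter SLC37A4 by 0.16, none at the criteria. PCK1 and GPT2 both met the criteria in all 12 fits that left out 1 array.

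Targets of insulin and of glucocorticoids did not move as blocks. KLF9, a transcription factor induced by glucocorticoids and thyroid hormone, was nearly separated between the groups, with 5.37, 6.02 and 6.67 in CON against 6.66, 6.77 and 7.13 in IM5. For KLF9 5 IM5 pigs exceeded every CON pig, the sixth was within 0.01 of the highest CON value, and the transcript rose 1.82-fold (0.86 ± 0.19, exact p = 0.00433). TSC22D3, the glucocorticoid-induced leucine zipper protein, fell instead by 0.28 ± 0.10 (CON median 7.19, IM5 median 6.97, exact p = 0.0346; met in 7 of the 12 fits that left out 1 array, not without CON replicate 3 or 4 or IM5 replicate 2, 3 or 4). Of the 13 measured glucocorticoid targets 1 rose and 2 fell, and FKBP5 (-0.09), PER1 (0.16) and TAT (0.23), the tyrosine aminotransferase, did not pass. In the insulin and fasting list 1 of 15 rose and 1 fell (2 rose and none fell without IM5 replicates 4 and 6).

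LPIN1, a phosphatidate phosphatase and coactivator that fasting induces, had values of 5.84, 6.28 and 6.39 in CON and 6.30, 6.45 and 7.07 in IM5, with 5 IM5 pigs above the CON range (0.34 ± 0.13, exact p = 0.0173; not without IM5 replicate 5). IGFBP1, a plasma binding protein of insulin-like growth factors that insulin lowers, fell 2.21-fold on average, but the pigs were widely spread, with 7.94, 8.65 and 9.86 in CON and 5.92, 7.96 and 9.30 in IM5. In IM5 3 pigs (replicates 1, 2 and 6, at 7.37, 5.96 and 5.92) lay below all CON pigs and the others inside the CON range, the exact p was 0.134, and the criteria held only in 4 of the 12 fits that left out 1 array, those without CON replicate 1 or IM5 replicate 3, 4 or 5. PDK4 (-0.16), FOXO1 (0.32), ANGPTL4 (0.09) and FGF21 (0.09), other genes of the fasting response, did not pass. FBXO32, a ubiquitin ligase subunit induced by FOXO factors, stands in the list of lysosome and autophagy genes, not in the insulin and fasting list. It was the only 1 of 33 measured members of its list at the criteria (3 rose without IM5 replicates 4 and 6). FBXO32 rose from 4.37, 4.75 and 5.04 in CON to 4.95, 5.09 and 5.27 in IM5 (0.37 ± 0.10, exact p = 0.00433), with 5 IM5 pigs above every CON pig.

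**Figure D2:**
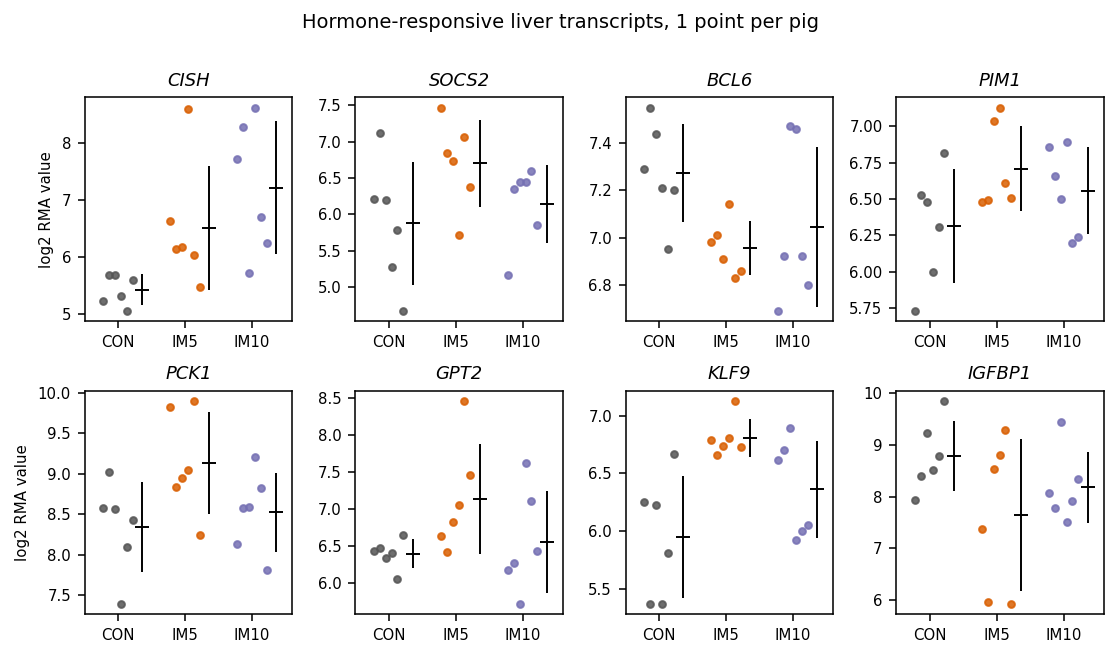
Log2 RMA values of 8 hormone-responsive transcripts, 1 point per pig (6 pigs in each of CON, IM5 and IM10), with the mean and its SD beside each group; the vertical axes do not start at 0. CISH, PCK1, GPT2 and KLF9 sit higher in most IM5 pigs than in CON, BCL6 sits lower, and IGFBP1 in IM5 is spread from 5.92 to 9.30.

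Amino acid handling outside these genes showed little. Only GPT2 rose among 39 measured genes of amino acid breakdown (median -0.015), none of 7 urea cycle genes and none of 22 targets of ATF4, the factor that answers amino acid shortage, met the criteria, and ASS1, which makes argininosuccinate, differed by -0.12 ± 0.12 (exact p = 0.431), with 0.32 in a second probe set of lower signal. Of 21 amino acid transporters 2 rose (1 without IM5 replicates 4 and 6). SLC3A1, the heavy subunit of the transporter for cystine and basic amino acids, had values of 3.86, 4.34 and 4.62 in CON and 4.26, 4.88 and 5.56 in IM5, 4 IM5 pigs being above the CON range (0.60 ± 0.20, 1.51-fold, exact p = 0.0346). SLC6A12, which carries betaine, differed by 0.30 ± 0.13 with overlapping groups (exact p = 0.0606; met in 7 of the 12 fits that left out 1 array, not without CON replicate 1, 2 or 3 or IM5 replicate 5 or 6). Under the fold criterion were KYNU, the kynureninase of tryptophan breakdown, at -0.24 ± 0.07 (1.18-fold, exact p = 0.00866), and PSAT1 of serine synthesis at 0.17 ± 0.07 (1.12-fold, exact p = 0.013).

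Transcripts of the endoplasmic reticulum had lower means in IM5, by small amounts. Of 23 measured genes of the unfolded protein response, which refolds or removes misfolded proteins in that compartment, 22 had the lower mean in IM5, with a median of -0.102, although only 2 fell. Without IM5 replicates 4 and 6, 20 had the lower mean, the median was -0.101 and 4 fell. Over all named genes the median was 0.00167. The mean level of the list was 8.17 to 8.45 in CON and 8.01 to 8.33 in IM5, so the groups overlapped, with 3 IM5 pigs below all CON pigs. DNAJB9, a cochaperone of the reticulum, had values of 8.29, 8.50 and 8.83 in CON and 7.78, 8.19 and 8.59 in IM5 and fell by 0.37 ± 0.13 (exact p = 0.0303). HYOU1, a chaperone of the same compartment, fell by 0.26 ± 0.10 (CON 8.45, 8.60 and 9.02; IM5 8.15, 8.49 and 8.54; exact p = 0.0325) and lost the criteria without CON replicate 4 or 5 or IM5 replicate 4 or 5. The master chaperone HSPA5 differed by -0.24 ± 0.10 (exact p = 0.0519), MANF by -0.29, and the transcription factor XBP1 by -0.10, none at the criteria.

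A larger fall was seen in HSPA13, a chaperone of the Hsp70 family that is bound to microsomes and stands in the list of cytosolic and mitochondrial chaperones, of which it was the only 1 of 26 at the criteria. Its values were 6.25, 6.53 and 7.15 in CON and 5.67, 5.79 and 6.51 in IM5. Of the IM5 pigs 4 lay below every CON pig and replicates 3 and 6 inside the CON range (-0.63 ± 0.18, 1.55-fold lower, exact p = 0.0238). Cytosolic HSPA8 differed by -0.16 and HSPB1 by 0.15, neither at the criteria, and none of 22 proteasome genes, 29 ribosomal protein genes or 29 genes of oxidative phosphorylation met the criteria.

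IER3IP1, a small membrane protein of the reticulum and Golgi, separated the groups fully, with 7.66, 7.83 and 8.07 in CON against 7.34, 7.44 and 7.55 in IM5 (-0.39 ± 0.08). Full separation fixes the exact p at 0.00216, the smallest value that the arrangements of 6 against 6 pigs allow, so this p adds no evidence. A further 3 transport genes had every IM5 pig below every CON pig without reaching the fold criterion. SRPRA, a subunit of the receptor that docks ribosomes on the reticulum, went from 9.07, 9.23 and 9.33 to 8.93, 9.0 and 9.04 (-0.22 ± 0.06), though its second probe set differed by only -0.11. SLC35A3, the Golgi carrier of UDP-N-acetylglucosamine, went from 7.64, 7.79 and 7.90 to 7.31, 7.55 and 7.61 (-0.25 ± 0.07), and TMED5, a cargo receptor of transport vesicles, from 8.09, 8.18 and 8.28 to 7.94, 8.0 and 8.07 (-0.18 ± 0.06). Over all 25388 probe sets, 27 (0.106%) had every IM5 pig below every CON pig and 30 (0.118%) every IM5 pig above, and 13 and 17 of them carried 1 gene symbol. For a probe set without a group difference, 0.00216 is also the chance of full separation in either direction. The shares of 0.106% and 0.118% together are close to that chance. Full separation alone therefore does not set these genes apart from chance.

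After these genes had been seen, a list of 103 genes of secretory transport was assembled, which is a description and no separate evidence. Of its 82 measured members 61 had the lower and 20 the higher mean in IM5, the median was -0.061 and 2 fell (59 lower, 22 higher and 4 fallen without IM5 replicates 4 and 6). SEC23B, a coat protein of vesicles that leave the reticulum, fell by 0.36 ± 0.12 (CON 7.19, 7.34 and 7.77; IM5 6.83, 7.05 and 7.40; exact p = 0.0238), with 5 IM5 pigs below the CON range. SEC61G, a subunit of the channel through which secreted proteins enter the reticulum, fell by 0.28 ± 0.09 (CON median 7.52, IM5 median 7.23, exact p = 0.0216; not without CON replicate 1 or 5 or IM5 replicate 3 or 5). Outside any list, ERO1B, an oxidase that forms disulfide bonds in the reticulum, fell by 0.34 ± 0.11 (exact p = 0.0108; not without CON replicate 4), and BHLHA15, a transcription factor of secretory cells, fell by 0.41 ± 0.19 (exact p = 0.0866) with the criteria met in only 5 of the 12 fits that left out 1 array, those without CON replicate 1, 2 or 6 or IM5 replicate 3 or 4. Among transcripts of secreted products, 11 of 22 acute phase proteins had the higher and 11 the lower mean, with 1 risen and 1 fallen. None of 16 apolipoprotein genes met the criteria. Whether the secretory load differed was not tested.

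**Figure D3:**
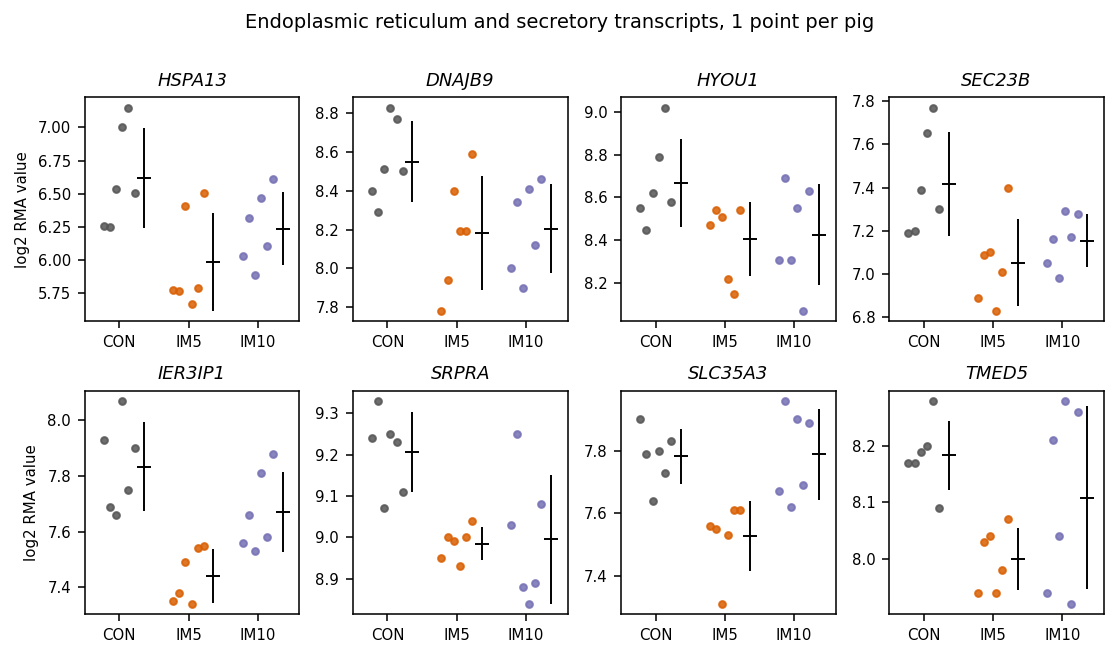
Log2 RMA values of 8 transcripts of the endoplasmic reticulum and secretory pathway, 1 point per pig (6 pigs in each of CON, IM5 and IM10), with the mean and its SD beside each group; the vertical axes do not start at 0. For IER3IP1, SRPRA (its dimmer probe set), SLC35A3 and TMED5 all 6 IM5 pigs lie below all 6 CON pigs, and for the other 4 genes the groups overlap.

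In lipid and xenobiotic metabolism single genes rose. CYP1A2, a cytochrome of foreign compound metabolism found near the central vein and controlled by the aryl hydrocarbon receptor, had values of 10.34, 10.82 and 11.02 in CON and 10.98, 11.13 and 11.50 in IM5. With 5 IM5 pigs above all CON pigs, CYP1A2 rose 1.32-fold (0.40 ± 0.11, exact p = 0.00433), the only 1 of 22 phase I genes at the criteria. CYP2A19 differed by 0.25 ± 0.10 (exact p = 0.0433) without reaching a fold of 1.2. Of 15 phase II genes none met the criteria.

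Targets of NRF2, the factor that answers oxidative and electrophilic stress, had the higher mean in 17 of 21 cases, with a median of 0.112 and 2 rises (3 without IM5 replicates 4 and 6). NQO1, a quinone reductase, had values of 5.44, 5.54 and 5.78 in CON and 5.56, 5.94 and 6.36 in IM5, 4 IM5 pigs being above the CON range (0.31 ± 0.12, exact p = 0.0411; not without IM5 replicate 5). ME1, the malic enzyme that makes NADPH and is also a lipogenic gene, rose by 0.35 ± 0.15 with overlapping groups (exact p = 0.0779; not without CON replicate 2 or 4 or IM5 replicate 1, 5 or 6). PIR, another NRF2 target, differed by 0.21 ± 0.07 (exact p = 0.0152), and the glutathione synthesis genes GCLC (-0.01) and GCLM (0.02) did not pass.

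The lipid lists held few calls. In fatty acid and triacylglycerol synthesis 2 of 17 rose, LPIN1 and ME1, while ACACA (0.06) and SCD (0.07), which make fatty acids and desaturate them, did not pass. None of 22 genes of fatty acid oxidation, 14 of cholesterol synthesis and uptake, 16 of bile acid synthesis and transport and 9 of polyunsaturated fatty acid synthesis met the criteria, FADS2, a desaturase of that last list, differing by 0.22 ± 0.09 (exact p = 0.0325), MVK of cholesterol synthesis by -0.14 ± 0.06 (exact p = 0.0152) and ACOT12, an acetyl-CoA hydrolase, by -0.24 ± 0.08 (exact p = 0.0173). FAR2, which reduces fatty acyl-CoA to alcohols, fell by 0.34 ± 0.12 (CON median 4.59, IM5 median 4.33, exact p = 0.0173). It was the only 1 of 19 measured phospholipid synthesis genes at the criteria and lost them without IM5 replicate 5. Outside the lists and chosen after their values were seen, the triacylglycerol lipase PNPLA2 rose from 6.78, 7.17 and 7.50 to 7.28, 7.58 and 7.89 (0.42 ± 0.13, exact p = 0.013) and the acyltransferase GPAT3, which starts triacylglycerol synthesis, fell by 0.35 ± 0.14 (exact p = 0.0476; not without CON replicate 2 or 4 or IM5 replicate 4). DHRS3, a retinal reductase, rose by 0.29 ± 0.12 (exact p = 0.0584; not without CON replicate 1 or IM5 replicate 3, 5 or 6), the only 1 of 18 retinoid genes at the criteria. Under the symbol RDH16, a retinol dehydrogenase, 1 probe set was listed here, and it differed by -0.002. The paper reports a transcript that it names as this enzyme to be raised in liver of both insect meal groups. That transcript was not among the probe sets with a gene symbol and a fold over 2 at the criteria here. Which probe set it belongs to was not settled, so the value of -0.002 does not speak to it.

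Iron, acute phase and complement genes gave rises in individual genes. HAMP, the iron-regulating peptide hormone hepcidin, had values of 5.31, 6.71 and 7.94 in CON and 6.99, 7.53 and 8.46 in IM5. In CON 3 pigs were at 6.14 or below and 3 at 7.27 or above, so the IM5 pigs overlapped the upper CON pigs (0.96 ± 0.41, exact p = 0.0952; not without CON replicate 4, 5 or 6 or IM5 replicate 1 or 2). It was the only 1 of 15 iron genes and of 18 BMP and SMAD targets at the criteria, the BMP ligand BMP6 differing by 0.21 and the SMAD target ID1 by 0.29. SAA3, a serum amyloid protein, separated into 2 levels rather than shifting: CON replicates 2 and 4 stood at 5.35 and 5.49 and the other CON pigs between 8.38 and 8.87, while all IM5 pigs stood between 8.52 and 9.12. Its 2.36-fold rise (1.24 ± 0.57, exact p = 0.0801) became a difference of 0.79 without CON replicate 2 and of 0.82 without CON replicate 4, neither at the criteria, and it was also lost without any 1 IM5 array. Without IM5 replicates 4 and 6 together none of the 22 acute phase genes rose and 1 fell. In IM10 replicates 4 and 5 stood at the low level of SAA3, 5.03 and 5.73.

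SLPI, a secreted protease inhibitor, fell by 0.38 ± 0.14 (CON 6.10, 6.22 and 6.36; IM5 5.49, 5.70 and 6.41), with 4 IM5 pigs below and 1 above the CON range (exact p = 0.0519). Its second probe set holds the same values and adds nothing. CFP, properdin, which stabilises the alternative complement pathway, rose by 0.28 ± 0.11, with 5 IM5 pigs above all CON pigs (exact p = 0.0455) and the criteria missed without CON replicate 3 or 4 or IM5 replicate 1, 2, 5 or 6. None of 29 interferon-stimulated genes, 24 antigen presentation genes, 42 chemokine and interleukin genes and 14 chitinase and chitin receptor genes met the criteria, the last list being of interest because insect cuticle holds chitin.

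Among 32 measured genes of the Wnt pathway and of the pericentral zone it maintains, 4 rose and none fell, with a median of 0.056 (5 rose and 1 fell without IM5 replicates 4 and 6). SFRP1, a secreted Wnt antagonist, had values of 5.72, 6.34 and 6.86 in CON and 6.46, 6.86 and 8.18 in IM5, 3 IM5 pigs being above the CON range (0.83 ± 0.26, 1.78-fold, exact p = 0.0195). The receptor FZD4 rose by 0.27 ± 0.09 (exact p = 0.0152; met in 5 of the 12 fits that left out 1 array, those without CON replicate 2 or 3 or IM5 replicate 1, 3 or 6). DKK1, another secreted antagonist with values near the low end of the array (CON median 3.38), rose by 0.32 ± 0.15 (exact p = 0.0779), or by 0.21 without IM5 replicate 3, and lost the criteria without any of CON replicates 2, 3 and 6 and IM5 replicates 2, 3 and 4. CYP1A2 is the fourth, and the Wnt-driven pericentral genes GLUL (-0.11), AXIN2 (0.29) and CYP2E1 (0.05) did not pass.

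Of 23 measured genes of the immediate early class, which growth factors and stress switch on within minutes, and of the feedback on MAP kinases, 3 rose. ZFP36, an RNA-binding protein that destabilises cytokine mRNAs, had values of 7.16, 7.38 and 7.66 in CON and 7.52, 7.81 and 7.96 in IM5, with 5 IM5 pigs above the CON range (0.38 ± 0.10, exact p = 0.0108). The transcription factor EGR1 rose by 0.54 ± 0.21 (CON 6.43, 6.54 and 7.67; IM5 6.82, 7.38 and 7.91; exact p = 0.0584; not without CON replicate 6 or IM5 replicate 3) and EGR2 by 0.26 ± 0.12 (exact p = 0.0649; not without CON replicate 2, 4, 5 or 6 or IM5 replicate 1 or 2). FOS (0.16), JUN (-0.14) and DUSP1 (-0.21) did not pass. Of 15 clock genes only PER2, a repressor of the clock, met the criteria, and it fell by 0.33 ± 0.12 (CON median 5.97, IM5 median 5.64, exact p = 0.039; not without IM5 replicate 5), while CRY1 (-0.72), DBP (0.36), RORA (0.44 ± 0.22, exact p = 0.121) and BHLHE40 (0.26 ± 0.10, exact p = 0.0238) did not. Without IM5 replicates 4 and 6 the calls of the clock list changed direction, with 2 risen and none fallen.

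Markers of other cell types differed in small amounts. All 6 IM5 pigs had a higher mean over 11 measured neutrophil markers (4.08 to 4.13) than all CON pigs (3.90 to 4.06), although none of the 11 met the criteria and the levels were low. Of the 55 lists this was the only 1 whose list means separated the groups fully. It is singled out for that, and the margin was narrow. NCF1, a subunit of the phagocyte oxidase, came nearest to the criteria (0.26 ± 0.08, exact p = 0.00649). Of 6 measured mast cell markers 2 rose. FCER1A, a chain of the IgE receptor, went from 4.13, 4.29 and 4.70 to 4.41, 4.88 and 5.25 (0.51 ± 0.14, exact p = 0.013) and KIT, the stem cell factor receptor, from 4.48, 4.87 and 5.29 to 4.86, 5.39 and 5.76 (0.48 ± 0.17, exact p = 0.0433). The mast cell list mean was 4.10 to 4.35 in CON and 4.23 to 4.58 in IM5, and MS4A2, a further chain of the IgE receptor, differed by 0.27 while HDC, the histamine-forming enzyme, differed by -0.03, neither at the criteria.

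Of 27 T and natural killer cell markers 21 had the lower mean in IM5, with a median of -0.105, and 1 fell (22 lower and 3 fallen without IM5 replicates 4 and 6). KLRK1, the activating receptor NKG2D, had values of 3.98, 4.41 and 5.05 in CON and 3.28, 3.79 and 4.12 in IM5, with 4 IM5 pigs below all CON pigs (-0.64 ± 0.18, exact p = 0.013). SLAMF1 differed by -0.23 ± 0.09 (exact p = 0.0433), CD2 by -0.32, CD3D by -0.26 and CD8A by -0.26 without meeting the criteria, and the list mean of 4.74 to 5.10 in IM5 overlapped that of 4.89 to 5.28 in CON. Macrophage markers had the higher mean in 14 of 18 cases and 1 rose, the scavenger receptor MSR1 (0.28 ± 0.10, exact p = 0.0173; not without CON replicate 3 or IM5 replicate 2 or 5). Endothelial markers had the higher mean in 12 of 13 cases and 1 rose, the tight junction protein CLDN5, from 5.33, 5.46 and 5.51 to 5.51, 5.77 and 5.83 (0.28 ± 0.07, exact p = 0.00649; not without CON replicate 1).

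Smooth muscle markers depended on 1 array. TAGLN, an actin-binding protein of contractile cells, rose by 0.59 ± 0.27 (exact p = 0.0584), but IM5 replicate 6 stood at 7.66 against 6.50 for the next pig and without it the difference was 0.31 and not at the criteria, and it was also lost without any 1 of CON replicates 1 to 5 or IM5 replicate 3 or 5. MYL9, the myosin light chain of the same cells, rose by 0.31 ± 0.13 (exact p = 0.0346), or by 0.18 without IM5 replicate 6, and also lost the criteria without CON replicate 2 or 5 or IM5 replicate 5. ACTG2, the enteric smooth muscle actin, stood at 8.01 in IM5 replicate 6 and at 4.85 or below in the other IM5 pigs, against 2.96 to 4.99 in CON. The smooth muscle list mean of IM5 ran from 5.71 to 7.11, against 5.67 to 6.01 in CON, and the list median of 0.227 became 0.047 without IM5 replicates 4 and 6. IM5 replicate 6 also had the lowest value on the first principal component, and the part of these markers in the other results was not tested beyond the values given without the array.

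Of 11 bile duct markers 2 rose, the transcription factor SOX9 (0.27 ± 0.11, exact p = 0.0498; not without CON replicate 3 or 6 or IM5 replicate 1, 2 or 4) and the tight junction protein CLDN4 (0.29 ± 0.13, exact p = 0.0628), which was 0.17 without IM5 replicate 1 and met the criteria in only 4 of the 12 fits that left out 1 array, those without CON replicate 2 or IM5 replicate 4, 5 or 6. Lists of tissues that a piece of liver should lack held calls too, 2 of 10 measured genes of gut and pancreas and 1 of 7 of nerve and adipose tissue, against 1.94% over all named genes. From gut and pancreas the intestinal factor CDX1 rose by 0.32 ± 0.11 (exact p = 0.0238) and the pancreatic lipase PNLIP fell by 0.26 ± 0.10 (exact p = 0.0303; not without CON replicate 2, 4 or 6 or IM5 replicate 1, 2 or 5), both at low signals (CON medians 4.13 and 2.38). PRPH, a neuronal filament protein, rose by 0.47 ± 0.17 (CON median 4.17, exact p = 0.0325) and KLF1, a factor of red cell precursors, by 0.27 ± 0.10 (CON median 3.77, exact p = 0.0346; not without CON replicate 2 or 6 or IM5 replicate 3, 4 or 5), the only 1 of 12 red cell markers at the criteria and lost without IM5 replicates 4 and 6. None of 10 B cell, 12 stellate cell and 9 platelet markers met the criteria.

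**Figure D4:**
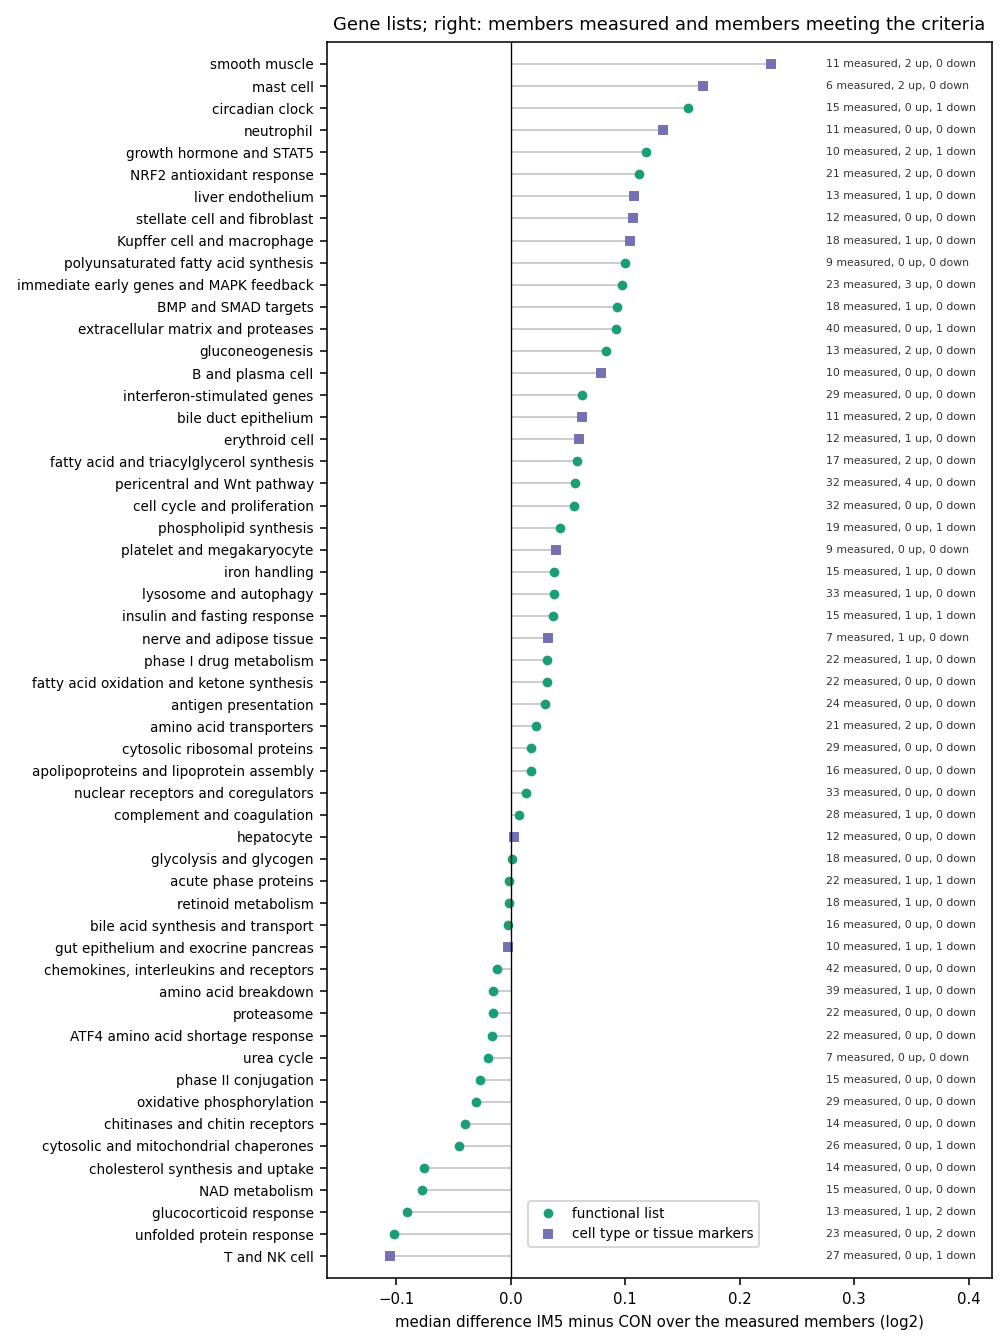
Median IM5 minus CON difference (log2) over the measured members of each of 55 gene lists, circles for functional lists and squares for markers of cell types or tissues, with the number of members measured, risen (up) and fallen (down) at the right. The list medians run from -0.105 for T and NK cell markers and -0.102 for the unfolded protein response to 0.227 for smooth muscle, against 0.00167 over all named genes.

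Of 7 probe sets at the criteria with a fold over 2, 5 carried a gene symbol (CISH, SAA3, IGFBP1, MOXD1 and TMEM52B) and 2 had none here. Both unnamed probe sets rose. The first went from 3.39, 5.34 and 7.32 to 3.61, 7.45 and 9.76 (1.76 ± 0.81, exact p = 0.115, met in 3 of the 12 fits that left out 1 array, those without CON replicate 1 or IM5 replicate 2 or 3). The second went from 2.07, 3.06 and 4.37 to 3.72, 4.51 and 4.99, with 5 IM5 pigs above all CON pigs (1.43 ± 0.35, exact p = 0.00649, met in all 12).

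The largest single change was in TMEM52B, which encodes a transmembrane protein. Its values were 2.88, 5.54 and 5.89 in CON and 2.59, 2.84 and 3.45 in IM5. Of the CON pigs 5 stood between 4.55 and 5.89, above all IM5 pigs, and CON replicate 1 stood at the IM5 level of 2.88 (-2.14 ± 0.40, exact p = 0.00866). The IM5 values lie at the low end of the arrays and no detection calls were used here, so the ratio of the groups is not given as a fold. Leaving out that pig gave the only adjusted call in any of the 12 fits that left out 1 array, a difference of -2.57 with a limma adjusted p of 0.000141; the choice of that pig follows from its value, so this is a description. In IM10 5 pigs were between 2.41 and 3.36 and replicate 6 was at 5.25 for TMEM52B.

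CPXM2 also stood at separate levels in CON. This gene, which encodes a carboxypeptidase family protein of the matrix, stood at 7.52 or above in 4 CON pigs and at 6.47 and 6.22 in CON replicates 1 and 6, while all IM5 pigs were between 6.22 and 6.77 (-0.85 ± 0.25, exact p = 0.039). Other large falls were graded across pigs. MAP10, a microtubule-associated protein, ran over 3.59, 4.53 and 5.40 in CON and 3.48, 3.58 and 4.21 in IM5 (-0.80 ± 0.23, exact p = 0.0173). Its second and brighter probe set (CON mean 5.43) differed by -0.40. MOXD1, a copper monooxygenase, differed by -1.06 ± 0.47 (exact p = 0.0844), was -0.64 without IM5 replicate 3, and met the criteria in only 4 of the 12 fits that left out 1 array, those without CON replicate 1 or 6 or IM5 replicate 5 or 6. OSGIN2 differed by -0.88 ± 0.37 (exact p = 0.0779; not without any of CON replicates 2 to 5 or IM5 replicate 2 or 5). ENPP4, an ectoenzyme that hydrolyses nucleotides, fell more evenly from 4.56, 4.88 and 5.09 to 3.99, 4.36 and 4.72 (-0.48 ± 0.12, exact p = 0.00649), with -0.24 in its second and brighter probe set.

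Among rises outside the lists, several genes of low signal had every IM5 pig above every CON pig. Full separation fixes the exact p at its smallest possible value of 0.00216. Since separated groups were also a rule for naming genes, that p is no separate evidence. Over all probe sets, full separation was also about as frequent as chance gives. SLC16A4, of the monocarboxylate transporter family, went from 2.18, 2.33 and 2.39 to 2.48, 2.66 and 2.81 (0.33 ± 0.07), and MAPK10, the kinase JNK3, from 2.91, 3.04 and 3.09 to 3.16, 3.35 and 3.49 (0.30 ± 0.07). ITM2A, a membrane protein, went from 3.57, 3.71 and 3.82 to 3.85, 4.00 and 4.27 (0.36 ± 0.09). TFPI, the inhibitor of the tissue factor pathway of clotting, went from 2.90, 3.19 and 3.23 to 3.29, 3.38 and 3.72 (0.31 ± 0.08; not at the criteria without IM5 replicate 4), and the nuclear protein gene AFF2 showed 0.30 ± 0.08 (not without IM5 replicate 2). These levels lie below the array medians of 5.05 to 5.15, where a probe set holds less signal over background.

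At signals above the array medians, PRNP, the prion protein, went from 5.52, 5.56 and 5.59 to 5.63, 5.82 and 6.33 with no overlap (0.30 ± 0.10; not without IM5 replicate 6), and EGLN2, an oxygen-sensing prolyl hydroxylase, from 6.58, 6.77 and 6.88 to 6.90, 6.99 and 7.05 with no overlap but under the fold criterion (0.24 ± 0.07). NOV, a matricellular growth regulator, rose from 5.59, 5.87 and 6.02 to 6.02, 6.27 and 6.65 (0.47 ± 0.11, exact p = 0.00433). Below the array medians in CON, MOB3C, of the MOB kinase activator family, rose by 0.53 ± 0.13 (CON median 4.50, exact p = 0.00866). The synaptic scaffold CNKSR2, also below them, rose by 0.83 ± 0.32 (CON median 2.64, with 3 IM5 pigs at 2.49 to 2.77, exact p = 0.0758, criteria not met without IM5 replicate 6). The membrane-bending protein BIN1 rose by 0.61 ± 0.25 (CON median 4.63, exact p = 0.0801). BIN1 lost the criteria without CON replicate 2, 3 or 5 or IM5 replicate 1, 2 or 5. Its second and brighter probe set (CON mean 5.45) differed by 0.19.

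The values of IM5 were also set directly against those of IM10, the pigs with 10% insect meal, because the comparisons of both groups with CON share the control pigs. In that direct comparison 404 probe sets (1.59%) met the criteria, 210 higher and 194 lower in IM10, none had an adjusted p under 0.05 in limma (smallest 0.881), and an unadjusted p under 0.05 was reached by 1372 probe sets in limma and by 1487 in the methods' t-test. Most of the genes described above did not differ between IM5 and IM10 at the criteria. CISH differed from CON by 1.08 in IM5 and 1.78 in IM10 (IM10 minus IM5 0.71, exact p = 0.318), CYP1A2 by 0.40 and 0.38 (-0.03, exact p = 0.786), and FCER1A by 0.51 and 0.61 (0.10, exact p = 0.511).

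A smaller number did differ at the criteria. Genes were chosen for their IM5 values against CON, and the same IM5 arrays enter here. IM10 values nearer to CON are therefore expected from that choice alone, and the exact p-values do not allow for it. IM10 lay below IM5 for KLF9 (-0.45, exact p = 0.0563), PCK1 (-0.61, exact p = 0.0931), ZFP36 (-0.28, exact p = 0.0195), SAA3 (-1.26, exact p = 0.0996), DHRS3 (-0.27, exact p = 0.0628), CDX1 (-0.26, exact p = 0.0325) and MAPK10 (-0.35, exact p = 0.00433). The IM10 minus CON difference was 0.41 for KLF9, 0.18 for PCK1, 0.10 for ZFP36, -0.02 for SAA3, 0.02 for DHRS3, 0.06 for CDX1 and -0.04 for MAPK10. HAMP was higher in IM10 than in IM5 by 0.61 (exact p = 0.0411), with 1.57 from CON in IM10, KLRK1 by 0.54 (exact p = 0.0541), GPAT3 by 0.27 (exact p = 0.0325) and KYNU by 0.29 (exact p = 0.00433). For the transport genes, SLC35A3 was 0.26 higher in IM10 than in IM5 with an exact p of 0.00216 and IER3IP1 0.23 higher (exact p = 0.00866), both under the fold criterion, whereas SRPRA differed by 0.01 (exact p = 0.909) and DNAJB9 by 0.02 (exact p = 0.903).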

How the data were processed

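The authors hybridised liver RNA to Affymetrix Porcine Gene 1.0 ST arrays and deposited log2 values made with Expression Console and RMA; software versions are not given in the sources used here. The deposited log2 values were used unchanged. Gene symbols came from GEO's platform annotation, updated by gene number through a Sscrofa11.1 gene table for 12804 probe sets. 427 probe sets with several genes and 11704 not listed were left unnamed. For lists, the brightest probe set stood for a gene. Limma 3.58.1 in R 4.3.3 compared the 12 arrays without covariates and was tested on simulated data; the fold threshold was 1.2, and p-values were adjusted over all probe sets (Benjamini-Hochberg). Single genes were tested with two-sided exact permutation tests over all arrangements of 6 against 6 pigs. Arrays give no counts, so their number limits the precision. Genes were named by rule: the 15 largest changes each way, list members at the criteria, the 10 smallest p each way, up to 15 non-overlapping genes each way, and 2 members of smallest p per list. PIM1, ERO1B, PNPLA2, GPAT3, SEC23B, SEC61G, HSPA5, IGF1, IGFALS, ACTG2 and list members given by a difference alone were chosen after their values were seen. Comparison, rule and all lists were chosen with earlier results of these data known. Replicate numbers did not pair pigs across groups. No sequences are shown, since none were in the sources used here.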

Additional observations from a re-analysis of the deposited data

Results flagged for a closer look

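Among the 90 probe sets named, with 2 groups of 6 pigs each, 11 of 180 groups (6.11%) held 1 pig far from the others by Dixon's test at the 95% level, about the 1 in 20 that chance gives. CISH stood at 8.60 in IM5 replicate 4, next 6.63, and SLAMF1 at 3.45 in the same pig, next 3.08, while CFP was low there at 6.36, next 6.85. ACTG2 stood at 8.01 in IM5 replicate 6, next 4.85, and PRNP at 6.33 in that pig, next 5.88. KLF9 stood at 7.13 in IM5 replicate 5, next 6.81, and TAT at 10.82 in that pig, next 9.96. SLC35A3 was low at 7.31 in IM5 replicate 3, next 7.53. In CON, CYP2A19 (10.15, next 9.81) and XBP1 (8.63, next 8.48) were high in replicate 3 and SLC6A12 (8.33, next 7.92) in replicate 6.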

How the results depend on the processing

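The 488 probe sets at the criteria in IM5 against CON became 209 with the dimmer probe sets left out, 317 at a mean of at least 4, 320 with the methods' t-test, 38 at a fold over 1.5, 1452 without a fold threshold and 757 without IM5 replicates 4 and 6 together, a setting chosen after seeing the data; leaving out 1 array gave 490 to 671. The 404 of IM10 against IM5 became 175 and 250 under the same 2 filters on low values and 389 to 599 without 1 array. The 57 probe sets whose groups did not overlap became 35 without the dimmer probe sets and 90 to 155 without 1 array, which has fewer pigs to keep apart. Adjusted calls were 0 under every alternative run, and 0 to 1 without 1 array, the 1 being TMEM52B without CON replicate 1. A replicate block in the fit gave 559 and 450 probe sets at the criteria and 0 adjusted calls; same-numbered IM5 and CON pigs deviated together at -0.144 to 0.0666 and 1 of 6 correlated best with its own number, so the numbers do not pair the pigs. Of 68 named probe sets at the criteria 29 stayed there in all 12 fits without 1 array. Of 2031 values tried for named probe sets, 1757 were the same, 226 weaker, 48 stronger and 0 reversed. With the methods' t-test 21 were weaker, and 13 were weaker without IM5 replicates 4 and 6 together. The settings share most or all of the arrays, so the lack of reversals says little about stability. Of 896 list medians 5 moved, among them the glucocorticoid response (0.019 without IM5 replicate 4), the clock (0.022 without IM5 replicate 5) and neutrophil markers (0.083 without IM5 replicate 2). A list median counted as moved only if it changed by more than the SD of the list mean between pigs. A median could therefore vanish and not count. Leaving out IM5 replicates 4 and 6 together was not among these settings. It took the median from 0.227 to 0.047 for smooth muscle, from 0.168 to 0.075 for mast cell and from 0.062 to 0.162 for bile duct markers. Of 24 lists with no call 10 had 1 or 2 calls without IM5 replicates 4 and 6. Genes of low signal, near background, limit what the arrays resolve.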
